A study of Mus musculus with 19 samples.

Results

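Alveolar type II (AT2) cells sorted from mouse lung were compared between 5 libraries labelled Etv5KO and 4 control libraries. These 9 libraries were taken from the 19 of the study by their titles, and the other 10 are whole lung of the same genotypes, used here only to set a lung value beside an AT2 value. Every gene was a member: each library holds a count for 36528 Entrez gene IDs, of which 14939 had enough counts to be tested. Control mice carried SpcCreERT2, a tamoxifen-dependent Cre recombinase under the surfactant protein C promoter, and RosatdTomato, a fluorescent reporter that Cre switches on. Mice of the other group carried both of these and, in addition, a knockout and a loxP-flanked allele of Etv5 (Etv5ko/loxp). All mice received tamoxifen at 100 mg/kg body weight over 5 days and were left for 5 more days. The sorted cells were positive for EpCAM, an epithelial surface protein, and for tdTomato, and negative for the leukocyte protein CD45 and the endothelial protein CD31. Every cell of an Etv5ko/loxp mouse carries the knockout allele, while the loxP-flanked allele is open to Cre only where the surfactant protein C promoter was active. The tdTomato gate marks cells in which Cre acted on the reporter and does not show recombination at Etv5. Ages and sexes are not given in the labels. The labels name 5 mice per genotype, and the fifth AT2 control was not analysed here. The labels do not tie each library to a mouse, so the p-values measure the spread between these samples.

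AT2 cells line the alveoli beside the flat AT1 cells, through which gas is exchanged. They make surfactant lipids and proteins, store them in lamellar bodies, secrete them together with defence proteins, and can divide and give rise to AT1 cells after injury. Etv5 is an ETS family transcription factor of the PEA3 group with Etv1 and Etv4, is made in AT2 cells, and acts downstream of receptor tyrosine kinase and Ras signalling. ETS factors bind DNA with a GGAA core.

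The 9 libraries held 17426415 to 28671262 counts. Levels are given as CPM, the count divided by the TMM-scaled library size, differences as log2 fold changes of libraries labelled Etv5KO over controls with their SE, and a gene was called where its p from edgeR's quasi-likelihood test, adjusted over all 14939 genes by Benjamini-Hochberg, was under 0.05. Replicates in each group differed by more than counting noise (chi-square per degree of freedom 7.81 to 61.8), so none was a copy of another. On principal components of log2 CPM, component 1 held 37.7% of the variance and separated the genotypes, and control library 2 stood apart on component 2, at −41.1 against −14.8 to 26.9 for the other 8 libraries. In that library surfactant protein C (Sftpc) was lowest, at 46884 CPM. Across the groups Sftpc was at 68315 ± 15113 CPM in controls and 61265 ± 8776 CPM in libraries labelled Etv5KO, with an adjusted p of 0.696.

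Markers of the sorted cell type were high and those of the gated-out types low in both groups. Epcam was at 206 ± 17.96 CPM in controls and 219 ± 15.4 CPM in libraries labelled Etv5KO. Ptprc, which encodes CD45, was at 7.58 ± 3.04 CPM in controls and 7.26 ± 1.27 CPM in libraries labelled Etv5KO. Pecam1, which encodes CD31, was at 17.5 ± 2.89 CPM in controls and 21.6 ± 4.74 CPM in libraries labelled Etv5KO. The summed level of 20 AT2 markers was 176837 to 260767 CPM in controls and 154545 to 200911 CPM in libraries labelled Etv5KO, so the groups overlapped. Without Sftpc and Lyz2, the 2 most abundant, it was 106759 to 137572 CPM in controls and 88051 to 105659 CPM in libraries labelled Etv5KO, and the groups did not overlap. Of these 20 markers 5 fell and none rose, against 10 falls without control library 2, 3 without control library 1 or 3, and 9 falls and 3 rises with DESeq2. The sums of 4 other lists were higher in libraries labelled Etv5KO without overlap. For 20 AT1 markers the sum was 5069 to 5579.6 CPM in controls and 7287 to 7661 CPM in libraries labelled Etv5KO, and it still did not overlap without its 2 most abundant members, Ager and Emp2. For 13 airway secretory markers the sum was 4181 to 6050.3 CPM in controls and 7071 to 8620.4 CPM in libraries labelled Etv5KO, of which Cbr2 and Hp made up 91.2% in controls and 90.2% in libraries labelled Etv5KO. Without both genes it overlapped, at 292 to 653 CPM in controls and 559 to 875 CPM in libraries labelled Etv5KO, and Cbr2 itself did not pass the test (edgeR adjusted p 0.0765). For 12 ciliated cell markers the sum was 101 to 116 CPM in controls and 151 to 203 CPM in libraries labelled Etv5KO, of which Tppp3 and Dynlrb2 made up 90.6% and 93.3%. Without both genes this sum also overlapped, at 7.87 to 11.6 CPM in controls and 9.73 to 13.1 CPM in libraries labelled Etv5KO. The sum of 6 mesothelial markers was small, at 8.38 to 15.2 CPM in controls and 15.8 to 23.9 CPM in libraries labelled Etv5KO, and overlapped without Msln and Upk3b. The sums of endothelial and mesenchymal markers, and of leukocyte markers other than Lyz2, which is also in the AT2 list, overlapped between the groups and were at most 395 CPM. The median log2 fold change was 0.25 for endothelial, 0.45 for mesenchymal and 0.07 for leukocyte markers, against −0.01 for all genes. Basal, neuroendocrine and red blood cell markers summed to at most 4.84 CPM each, and the basal marker Dsc3 was at 0 in all 9 libraries. In bulk RNA of this kind, fewer cells of a type and less RNA per cell cannot be told apart.

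**Figure D1:**
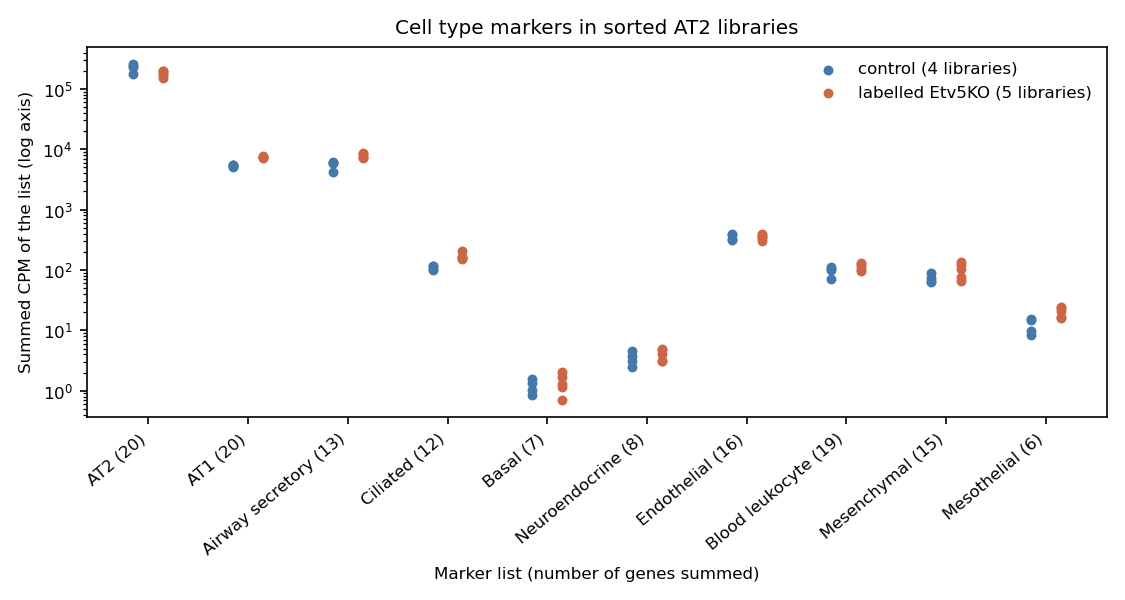
Summed CPM (y axis, log scale) of the cell type marker lists (x axis, number of genes summed in parentheses) in each of the 9 AT2 libraries, with controls and libraries labelled Etv5KO as separate colours. The AT1, airway secretory, ciliated and mesothelial sums are higher in all 5 libraries labelled Etv5KO than in all 4 controls, while the AT2 sums overlap, and Lyz2 is counted with the AT2 list alone.

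The counts of Etv5 itself did not check the labels. Etv5 was counted at 628, 583, 558 and 555 CPM in control libraries 1 to 4 and at 637, 656, 656, 622 and 546 CPM in libraries 1 to 5 labelled Etv5KO. The groups overlapped, and the difference did not pass the test (log2 fold change 0.10, SE 0.08, edgeR adjusted p 0.505). The deposited counts are sums over the whole gene, so the loss of a part of the transcript cannot be seen in them, and which part the alleles remove is not given in the sources used here. The genotype of each library therefore rests on its label.

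Of the 14939 genes tested, 1474 were called, or 9.87%: 751 were higher (5.03%) and 723 lower (4.84%) in libraries labelled Etv5KO. Counts of called genes in the lists of this report are to be read against these shares. The median log2 fold change of all genes was −0.01. Among the genes called, 156 (1.04% of all tested) were at least 2-fold higher and 184 (1.23%) at least 2-fold lower. At least 4-fold differences were found for 21 rises and 46 falls, and at least 8-fold differences for 3 rises and 8 falls. The groups' libraries did not overlap for 1318 of the genes called, against 1866 genes, or 12.5%, among all tested. Genes named for a large fold change were picked among those without overlap. Where the text says that their groups did not overlap, the choice had fixed it. Scaling by library size alone moved the split from 751 and 723 to 894 higher and 482 lower, and moved the median of all genes to 0.06.

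The 723 genes that fell took 12.1% ± 0.849 (SD, n = 4) of all CPM in controls and 7.23% ± 0.423 (SD, n = 5) in libraries labelled Etv5KO. Sftpa1, which encodes surfactant protein A, a collectin that binds microbes in the airspace, accounted for 28.2% of that drop, and the 10 genes with the largest drops for 56.6%. The 751 genes that rose took 6.73% ± 0.0456 of all CPM in controls and 9.62% ± 0.0963 in libraries labelled Etv5KO, with 22.3% of the gain in 10 genes. The share of genes called was 4.91% among those with a mean under 1 CPM, 13.7% from 50 to 500 CPM and 30.0% at 500 CPM and above. Sftpa1 was counted at 31800.0, 22443, 31256 and 30966 CPM in control libraries 1 to 4 and at 15624, 12321, 17302, 16876 and 14376 CPM in libraries 1 to 5 labelled Etv5KO. Control library 2 was the lowest control and still lay above every library labelled Etv5KO (log2 fold change −0.93, SE 0.15, edgeR adjusted p 0.00209).

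**Figure D2:**
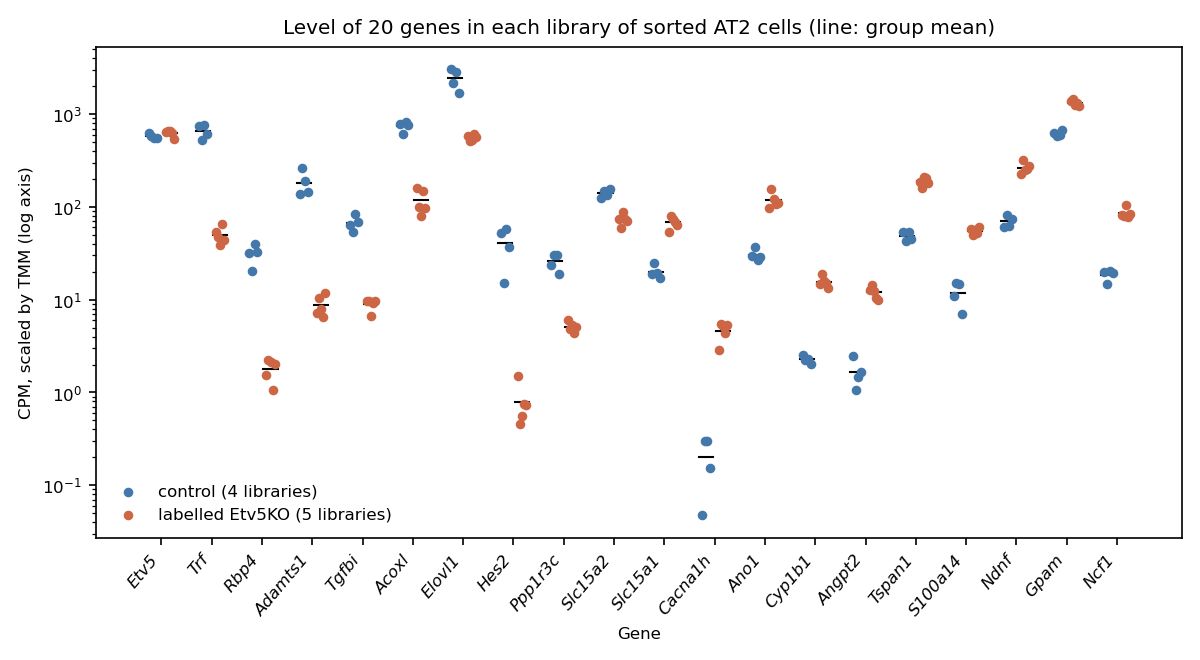
Level of 20 genes in each of the 9 AT2 libraries (CPM, log axis), with controls and libraries labelled Etv5KO as separate colours and a line at each group mean. For the 19 genes other than Etv5, every library labelled Etv5KO lies on the same side of every control. Most of these 19 were chosen among genes without overlap, so their separation was fixed by the choice.

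Promoter windows of 4 genes that fell are shown because ETS factors bind DNA and these genes are among those with the largest falls of their groups: Adamts1, Tgfbi, Acoxl and Elovl1. The 250 bases before the annotated start are from RefSeq on build GRCm38.p6, read 5′ to 3′ on the gene's strand, with matches to CCGGAAG or CAGGAAG on either strand in capitals. The 2 motifs share the letters GGAAG. Adamts1 lies at chr16:85803114-85803363, minus strand. Tgfbi lies at chr13:56609336-56609585, plus strand. Acoxl lies at chr2:127854378-127854627, plus strand. Elovl1 lies at chr4:118427843-118428092, plus strand, the first of 2 windows of that gene.
Adamts1: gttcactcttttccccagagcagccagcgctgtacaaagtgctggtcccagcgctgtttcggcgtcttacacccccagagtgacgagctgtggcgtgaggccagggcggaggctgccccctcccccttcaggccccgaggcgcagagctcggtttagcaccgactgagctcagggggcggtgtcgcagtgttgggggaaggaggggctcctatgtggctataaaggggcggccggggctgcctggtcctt
Tgfbi: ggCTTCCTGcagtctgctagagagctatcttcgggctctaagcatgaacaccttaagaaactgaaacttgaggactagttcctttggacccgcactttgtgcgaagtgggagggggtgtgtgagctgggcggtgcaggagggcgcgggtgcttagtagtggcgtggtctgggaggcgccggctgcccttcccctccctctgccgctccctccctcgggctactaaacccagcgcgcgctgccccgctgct
Acoxl: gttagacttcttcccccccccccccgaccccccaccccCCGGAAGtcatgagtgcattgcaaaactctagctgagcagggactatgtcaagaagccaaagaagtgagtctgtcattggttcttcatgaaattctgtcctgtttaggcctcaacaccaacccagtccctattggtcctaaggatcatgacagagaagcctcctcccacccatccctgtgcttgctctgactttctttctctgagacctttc
Elovl1: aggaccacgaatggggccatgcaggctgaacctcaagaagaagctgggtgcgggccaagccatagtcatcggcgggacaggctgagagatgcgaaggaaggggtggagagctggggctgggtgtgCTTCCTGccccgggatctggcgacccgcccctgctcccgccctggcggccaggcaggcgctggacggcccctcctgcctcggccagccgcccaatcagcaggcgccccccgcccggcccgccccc

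The Adamts1 window holds neither motif. The Tgfbi window holds CAGGAAG on the other strand, 248 bases before the start, the Acoxl window holds CCGGAAG on the gene's strand, 212 bases before, and the first Elovl1 window holds CAGGAAG on the other strand, 125 bases before. The second window of Elovl1, not shown, holds neither motif. In windows of 300 bases that also take in 50 bases after the start, available for 11121 of the genes tested, CCGGAAG was found in 9.55% of windows of genes that rose, 7.60% of those that fell and 16.4% of all. CAGGAAG was found in 11.3%, 12.7% and 12.97%. These matches are a description of letters in a window and no binding was measured.

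Secreted carrier proteins of the kind found in plasma were lower. Of 14 tested, 7 fell and 1 rose, with a median log2 fold change of −0.62 against −0.01 for all genes. Trf encodes transferrin, the iron carrier of plasma. It was counted at 748, 522, 760.1 and 607 CPM in control libraries 1 to 4 and at 53.1, 48.0, 38.6, 65.7 and 43.9 CPM in libraries 1 to 5 labelled Etv5KO. The 2 groups were far apart: the highest library labelled Etv5KO lay below the lowest control by a wide margin (log2 fold change −3.73, SE 0.17, edgeR adjusted p 4.20e-07). Rbp4, the retinol carrier, was counted at 32.0, 20.5, 40.1 and 32.7 CPM in control libraries 1 to 4 and at 1.55, 2.23, 2.11, 1.06 and 2.01 CPM in libraries 1 to 5 labelled Etv5KO. It was near the bottom of the measured range in all 5 libraries labelled Etv5KO (log2 fold change −4.11, SE 0.23, edgeR adjusted p 1.60e-06). Lcn2, which binds the iron-carrying siderophores of bacteria, fell from 819 ± 312 to 218 ± 46.1 CPM (log2 fold change −1.91, SE 0.23, edgeR adjusted p 3.27e-04). Albumin (Alb) fell from 8.31 ± 1.73 to 1.72 ± 0.401 CPM at a low level (log2 −2.29, SE 0.19). The other members that fell, named after their values were seen, were the lipid carrier Apoe (log2 −1.04), the secreted chaperone Clu (−0.70) and the vitamin D carrier Gc (−1.11). Hp, which encodes the haemoglobin binder haptoglobin, was the member that rose (log2 0.67, SE 0.16), and its adjusted p was up to 0.0564 without control library 4 or without library 1, 4 or 5 labelled Etv5KO. Selenop, a selenium carrier outside this list, fell from 1585 ± 310.4 to 759.6 ± 129 CPM (log2 −1.06, SE 0.15).

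A list of secreted protease inhibitors, which also holds the intracellular Serpinb9, changed in both directions. Of 23 tested, 3 rose and 4 fell, with a median of 0.05. The share called was 30.4%, against 9.87% of all genes. Itih4, an inter-alpha-trypsin inhibitor heavy chain, fell from 702 ± 94.5 to 331 ± 52.7 CPM (log2 fold change −1.08, SE 0.13, edgeR adjusted p 2.84e-04). Serpinf1, which encodes the secreted factor PEDF, fell from 19.1 ± 3.28 to 8.04 ± 0.759 CPM (log2 −1.25). The Kazal-type inhibitor Spink5 fell from 34.2 ± 3.92 to 15.1 ± 5.39 CPM (log2 −1.19). Serpinb9, an intracellular inhibitor of granzyme B, rose from 187 ± 6.24 to 299 ± 21.0 CPM (log2 fold change 0.67, SE 0.07, edgeR adjusted p 1.09e-04). Wfdc12, named after its values were seen, rose at a low level, from 0.815 ± 0.418 to 2.71 ± 0.873 CPM.

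Complement genes were called in 4 of 23 cases, or 17.4% against 9.87% of all genes. Of these calls 3 were falls, and the list's median was 0.05. Without control library 1 there were 3 rises, and without control library 4 there were 5 falls. C6, a component of the membrane attack complex, fell from 218 ± 9.42 to 129.8 ± 24.9 CPM (log2 fold change −0.75, SE 0.12, edgeR adjusted p 0.00225). Cd55, a membrane protein that speeds the decay of complement convertases, fell from 70.6 ± 9.65 to 47.5 ± 5.06 CPM (log2 −0.57). Cfi, the protease that cleaves C3b, fell at a low level, from 3.88 ± 0.737 to 1.46 ± 0.299 CPM (log2 −1.40). C5ar2, a receptor of complement fragment C5a, fell outside this list, from 13.1 ± 1.92 to 3.35 ± 0.598 CPM (log2 fold change −1.97, SE 0.15, edgeR adjusted p 1.56e-05).

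Pattern recognition and antimicrobial genes fell more often than they rose: 9 of 41 fell and 1 rose, against 4.84% and 5.03% of all genes, while the list's median was −0.04. Lbp, which hands lipopolysaccharide to CD14, was counted at 228, 223, 243 and 199 CPM in control libraries 1 to 4 and at 143, 129, 125, 133 and 142 CPM in libraries 1 to 5 labelled Etv5KO (log2 fold change −0.73, SE 0.07, edgeR adjusted p 8.14e-05). No library labelled Etv5KO reached the lowest control. Cd14, the receptor that takes up this complex, fell from 55.8 ± 9.81 to 25.9 ± 7.25 CPM (log2 −1.11), and Tlr4, the signalling receptor that follows, fell from 35.1 ± 2.03 to 22.7 ± 3.21 CPM (log2 −0.63). Both were named after their values were seen. The chitinase-like gene Chil1 was at 5876 ± 656 CPM in controls and 2852 ± 407 CPM in libraries labelled Etv5KO (log2 fold change −1.04, SE 0.12, edgeR adjusted p 2.98e-04). The neutrophil chemoattractant Cxcl15 fell from 11794 ± 1545 to 7479 ± 1256 CPM (log2 fold change −0.66, SE 0.14, edgeR adjusted p 0.0125). Carboxypeptidase M, a membrane peptidase of AT2 and AT1 cells encoded by the gene Cpm, fell from 1661 ± 191 to 907 ± 103 CPM (log2 fold change −0.87, SE 0.11, edgeR adjusted p 3.72e-04).

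The member that rose was Ncf1, the cytosolic organiser subunit of the phagocyte NADPH oxidase. Ncf1 was counted at 19.9, 14.6, 20.6 and 19.6 CPM in control libraries 1 to 4 and at 81.6, 79.0, 106, 78.8 and 84.4 CPM in libraries 1 to 5 labelled Etv5KO (log2 fold change 2.20, SE 0.12, edgeR adjusted p 1.90e-06). The lowest library labelled Etv5KO lay above the highest control. Noxa1, an activator subunit of the epithelial oxidase that was named after its values were seen, fell from 7.64 ± 2.12 to 2.55 ± 0.691 CPM (log2 −1.58). The summed level of 19 leukocyte markers outside the AT2 list was 70.4 to 112 CPM in controls and 96.9 to 128 CPM in libraries labelled Etv5KO, so the groups overlapped. Of 18 leukocyte markers tested 1 was called, Cd68 of macrophages, which rose from 16.2 ± 3.57 to 25.3 ± 1.81 CPM (log2 0.65), while DESeq2 called 2 rises and 2 falls. The macrophage receptor Csf1r was at 12.6 ± 4.35 CPM in controls and 7.91 ± 1.52 CPM in libraries labelled Etv5KO (edgeR adjusted p 0.0782). The part of leukocytes in the Ncf1 difference was not tested.

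Genes of lipid metabolism changed in both directions. Of 31 fatty acid synthesis and elongation genes, 8 fell and 3 rose (median −0.10), and 5 fell without control library 1 or without control library 3. Elovl1 encodes an elongase of very long chain fatty acids. It was counted at 3043, 2163, 2874 and 1691 CPM in control libraries 1 to 4 and at 587, 509.7, 533, 608 and 563 CPM in libraries 1 to 5 labelled Etv5KO. All 5 libraries labelled Etv5KO were under all 4 controls (log2 fold change −2.12, SE 0.16, edgeR adjusted p 1.27e-05). Fabp5, a fatty acid binding protein, fell from 154 ± 47.0 to 38.6 ± 8.86 CPM (log2 fold change −2.002, SE 0.22, edgeR adjusted p 1.55e-04). Acacb, the acetyl-CoA carboxylase at the mitochondrial membrane, fell from 25.5 ± 7.46 to 6.82 ± 1.69 CPM (log2 fold change −1.91, SE 0.23, edgeR adjusted p 3.03e-04). Acss2, the cytosolic acetyl-CoA synthetase named after its values were seen, fell from 28.0 ± 8.48 to 16.2 ± 2.07 CPM (log2 −0.79). Fads3, a desaturase, rose from 173 ± 10.9 to 242 ± 9.52 CPM (log2 0.48). Acot7, a cytosolic acyl-CoA thioesterase outside the list, was counted at 964, 652, 980.5 and 793 CPM in control libraries 1 to 4 and at 240.5, 192, 193, 257 and 223 CPM in libraries 1 to 5 labelled Etv5KO. The groups were separated here as well (log2 fold change −1.94, SE 0.13, edgeR adjusted p 9.21e-06).

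Fatty acid oxidation genes were called in 5 of 42 cases, 3 rises and 2 falls, with a median of 0.02. The share called, 11.9%, was close to the 9.87% of all genes. Acoxl, an acyl-CoA oxidase-like gene, was counted at 776, 606, 818 and 758 CPM in control libraries 1 to 4 and at 162, 99.9, 79.6, 149 and 97.9 CPM in libraries 1 to 5 labelled Etv5KO. It was the gene of this list that fell furthest (log2 fold change −2.65, SE 0.20, edgeR adjusted p 1.46e-05). Pecr, a peroxisomal trans-enoyl-CoA reductase, fell from 4.77 ± 0.827 to 2.42 ± 0.533 CPM (log2 −0.99). The peroxisomal transporter Abcd3 rose from 712 ± 48.2 to 1116 ± 69.4 CPM (log2 fold change 0.65, SE 0.08, edgeR adjusted p 3.52e-04), and Phyh, which starts the peroxisomal breakdown of phytanic acid, rose from 46.3 ± 3.99 to 60.5 ± 1.53 CPM (log2 0.38).

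Of 36 lipid droplet and lipolysis genes, 4 rose and 4 fell (median −0.04), and 2 fell without control library 1 or without control library 3. Gpam, the mitochondrial acyltransferase that starts glycerolipid synthesis, was counted at 631, 587, 588 and 671 CPM in control libraries 1 to 4 and at 1373, 1450.2, 1267, 1324 and 1235 CPM in libraries 1 to 5 labelled Etv5KO. Every library labelled Etv5KO exceeded every control (log2 fold change 1.10, SE 0.08, edgeR adjusted p 1.26e-05). Agpat4, which acts in the next acylation step, rose at a low level, from 2.90 ± 0.498 to 6.28 ± 1.31 CPM (log2 1.11). G0s2, an inhibitor of the lipase ATGL, fell from 5.59 ± 1.55 to 2.35 ± 0.423 CPM (log2 −1.27), and Abhd5, the activator of the same lipase, fell from 185 ± 14.9 to 128 ± 14.9 CPM (log2 −0.54). Gdpd2, a glycerophosphodiester phosphodiesterase outside the list, was counted at 8.07, 18.3, 8.23 and 9.78 CPM in control libraries 1 to 4 and at 1.09, 1.05, 1.66, 0.907 and 0.732 CPM in libraries 1 to 5 labelled Etv5KO. Its highest value was in control library 2 (log2 fold change −3.32, SE 0.30, edgeR adjusted p 4.20e-05).

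Glycogen genes were called in 5 of 23 cases, or 21.7% against 9.87% of all genes, with 2 rises, 3 falls and a median of −0.01. Ppp1r3c, which brings protein phosphatase 1 to glycogen, was counted at 23.4, 30.4, 30.3 and 19.1 CPM in control libraries 1 to 4 and at 6.07, 4.82, 5.28, 4.33 and 5.13 CPM in libraries 1 to 5 labelled Etv5KO. It was lower in all 5 libraries labelled Etv5KO than in any control (log2 fold change −2.33, SE 0.15, edgeR adjusted p 5.32e-06). Gys1, glycogen synthase, rose from 90.7 ± 10.1 to 123 ± 7.84 CPM (log2 0.44), and Pgm1, phosphoglucomutase, rose from 186 ± 3.16 to 244 ± 11.3 CPM (log2 0.39). Ugp2, which makes UDP-glucose, fell from 96.2 ± 7.72 to 71.7 ± 4.34 CPM (log2 −0.42). Nhlrc1, the ubiquitin ligase malin named after its values were seen, fell (log2 −0.77, edgeR adjusted p 0.0147), with an adjusted p of up to 0.0544 without control library 1 or 3. Fbp1, the fructose bisphosphatase of gluconeogenesis, fell at a low level, from 1.65 ± 0.586 to 0.258 ± 0.142 CPM (log2 −2.70).

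Of 44 amino acid and one-carbon genes, 6 fell and 3 rose (median 0.03). Arg2, the mitochondrial arginase, was counted at 29.5, 46.1, 31.4 and 27.6 CPM in control libraries 1 to 4 and at 8.53, 7.83, 8.35, 7.46 and 8.01 CPM in libraries 1 to 5 labelled Etv5KO. The groups did not overlap (log2 fold change −2.07, SE 0.14, edgeR adjusted p 9.21e-06). Arg1, the cytosolic arginase, fell from 16.4 ± 5.41 to 5.79 ± 1.64 CPM (log2 −1.51). Sat1, which acetylates polyamines, fell from 108 ± 17.4 to 58.5 ± 7.10 CPM (log2 fold change −0.89, SE 0.12, edgeR adjusted p 5.14e-04), and Got1, the cytosolic aspartate aminotransferase, fell from 21.99 ± 2.27 to 13.2 ± 1.51 CPM (log2 −0.74). Hdc, which makes histamine from histidine and stands outside the list, fell from 505 ± 49.99 to 145 ± 30.6 CPM (log2 fold change −1.80, SE 0.14, edgeR adjusted p 1.90e-05).

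Iron and copper genes gave 6 falls and 2 rises among 29 tested (median −0.19), and 3 falls without control library 3. Beside the fall of Trf, both rises were of metalloreductases. Cybrd1, duodenal cytochrome b, was counted at 33.9, 39.8, 26.3 and 27.3 CPM in control libraries 1 to 4 and at 88.7, 95.8, 79.4, 84.9 and 103 CPM in libraries 1 to 5 labelled Etv5KO. It was higher in all 5 libraries labelled Etv5KO (log2 fold change 1.51, SE 0.13, edgeR adjusted p 2.52e-05). Steap2 rose from 78.9 ± 20.5 to 137 ± 14.6 CPM (log2 fold change 0.79, SE 0.15, edgeR adjusted p 0.00503). The zinc and iron importer Slc39a8 fell from 596 ± 75.1 to 381 ± 37.8 CPM (log2 fold change −0.65, SE 0.10, edgeR adjusted p 0.00204).

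Of 71 ion channel genes 13 rose, or 18.3% against 5.03% of all genes, and 6 fell, or 8.45% against 4.84% (median 0.04), while 3 fell without library 5 labelled Etv5KO or without control library 1 or 3. Cacna1h, a T-type calcium channel, was counted at 0.0475, 0.299, 0.298 and 0.155 CPM in control libraries 1 to 4 and at 2.86, 5.42, 5.25, 4.33 and 5.4001 CPM in libraries 1 to 5 labelled Etv5KO. It was close to 0 in the controls and above all of them in every library labelled Etv5KO (log2 fold change 4.45, SE 0.35, edgeR adjusted p 1.56e-05). Ano1, a calcium-activated chloride channel, was counted at 29.7, 36.6, 26.9 and 28.7 CPM in control libraries 1 to 4 and at 97.6, 154, 122, 108 and 110.4 CPM in libraries 1 to 5 labelled Etv5KO (log2 fold change 1.96, SE 0.14, edgeR adjusted p 1.05e-05). Every library labelled Etv5KO exceeded every control. Trpv6, a calcium-selective channel, moved the other way and was counted at 49.3, 55.5, 59.6 and 35.8 CPM in control libraries 1 to 4 and at 7.84, 6.60, 6.69, 7.36 and 7.28 CPM in libraries 1 to 5 labelled Etv5KO (log2 fold change −2.81, SE 0.14, edgeR adjusted p 6.49e-07). Of the calcium pumps, Atp2b2 of the plasma membrane rose at a low level, from 0.420 ± 0.161 to 2.37 ± 0.785 CPM (log2 2.47), and Atp2a3 of the endoplasmic reticulum rose from 254 ± 20.9 to 389.8 ± 27.9 CPM (log2 fold change 0.62, SE 0.08, edgeR adjusted p 5.24e-04).

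Among 51 P-type and proton ATPase genes 4 rose and 3 fell (median 0.01), so 13.7% were called against 9.87% of all genes. The falls were of subunits of the vacuolar proton pump, which acidifies organelles, and of Atp13a4. Atp6v1c2 fell from 411 ± 40.8 to 169 ± 11.8 CPM (log2 fold change −1.28, SE 0.08, edgeR adjusted p 5.30e-06), and Atp6v1g3, named after its values were seen, fell from 3.40 ± 1.19 to 1.01 ± 0.307 CPM (log2 −1.77). Atp13a4, a P-type ATPase of the cation transporter group, fell from 20.1 ± 2.30 to 4.22 ± 1.27 CPM (log2 fold change −2.26, SE 0.20, edgeR adjusted p 4.40e-05). Of 240 solute carriers 20 rose and 20 fell (median −0.04), and 13 fell without control library 3. The proton-coupled peptide transporters moved in opposite directions. Slc15a1 was counted at 18.8, 24.8, 19.5 and 17.03 CPM in control libraries 1 to 4 and at 53.9, 79.9, 74.9, 68.1 and 63.2 CPM in libraries 1 to 5 labelled Etv5KO, a rise (log2 fold change 1.76, SE 0.14, edgeR adjusted p 1.54e-05). Slc15a2, the high-affinity form, was counted at 125, 147, 135 and 154 CPM in control libraries 1 to 4 and at 74.7, 59.1, 88.6, 74.0 and 70.5 CPM in libraries 1 to 5 labelled Etv5KO, a fall (log2 fold change −0.93, SE 0.11, edgeR adjusted p 2.22e-04). For both genes the groups did not overlap. The choline transporter-like Slc44a2 rose from 290.3 ± 7.66 to 432 ± 15.1 CPM (log2 fold change 0.57, SE 0.06, edgeR adjusted p 1.24e-04), and Slc7a7, a light chain of cationic amino acid exchange, rose from 6.99 ± 0.833 to 13.6 ± 0.819 CPM (log2 0.96). Of 33 ABC transporters 9 rose and 1 fell (median 0.13). Abcc6 rose from 2.90 ± 0.245 to 7.03 ± 0.411 CPM (log2 1.28), the organic anion exporter Abcc3 rose from 125 ± 1.59 to 175 ± 7.997 CPM (log2 0.49) and the lipid transporter Abca7 rose from 52.5 ± 3.69 to 76.4 ± 4.78 CPM (log2 0.54). Gjb1, a connexin of gap junctions, fell from 19.5 ± 2.85 to 4.32 ± 1.74 CPM (log2 fold change −2.19, SE 0.25, edgeR adjusted p 2.07e-04).

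Of 94 matrix genes 19 rose, or 20.2%, and 6 fell, or 6.38%, with a median of 0.26 against −0.01 for all genes, and 11 rose and 4 fell when tested against a fold of 1.2. The largest changes of the list were falls. Adamts1, a secreted protease that cleaves proteoglycans, was counted at 136, 261, 189.6 and 145 CPM in control libraries 1 to 4 and at 7.16, 10.3, 7.87, 6.45 and 11.9 CPM in libraries 1 to 5 labelled Etv5KO. All 5 libraries labelled Etv5KO were far below all 4 controls (log2 fold change −4.39, SE 0.23, edgeR adjusted p 1.12e-06). Tgfbi, a secreted integrin-binding protein, was counted at 63.4, 53.9, 83.3 and 69.3 CPM in control libraries 1 to 4 and at 9.68, 9.69, 6.69, 9.27 and 9.75 CPM in libraries 1 to 5 labelled Etv5KO (log2 fold change −2.91, SE 0.14, edgeR adjusted p 6.49e-07). It too showed no overlap. Among the rises, Col16a1, a fibril-associated collagen, was counted at 24.7, 28.0, 25.2 and 21.8 CPM in control libraries 1 to 4 and at 57.1, 75.3, 66.0, 60.8 and 70.3 CPM in libraries 1 to 5 labelled Etv5KO (log2 fold change 1.40, SE 0.10, edgeR adjusted p 1.02e-05). Mmp11, a matrix metalloproteinase, rose from 26.5 ± 3.05 to 43.4 ± 2.00 CPM (log2 0.71), and Smoc2 and Ltbp2, matrix glycoproteins named after their values were seen, rose from 29.0 ± 7.43 to 71.8 ± 9.53 CPM, and from 3.56 ± 1.01 to 8.46 ± 2.84 CPM, respectively. The summed level of 15 mesenchymal markers was 63.8 to 88.7 CPM in controls and 65.0 to 134 CPM in libraries labelled Etv5KO, and of 6 mesothelial markers 8.38 to 15.2 CPM in controls and 15.8 to 23.9 CPM in libraries labelled Etv5KO. Of 14 mesenchymal markers tested none was called, and their median log2 fold change was 0.45. Of 5 mesothelial markers tested 2 rose, with a median of 0.71. The part of both marker lists in the matrix result was not tested.

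Of adhesion genes, Itga9, an integrin alpha subunit, fell from 529.6 ± 43.7 to 256 ± 27.9 CPM (log2 fold change −1.05, SE 0.09, edgeR adjusted p 3.44e-05), and Alcam, an immunoglobulin family adhesion molecule, rose from 1175 ± 67.1 to 1587 ± 98.6 CPM (log2 0.43). Ndnf, a secreted glycoprotein, rose from 69.8 ± 10.1 to 265 ± 34.8 CPM (log2 fold change 1.93, SE 0.12, edgeR adjusted p 4.81e-06). Mucin-type glycan and sialylation genes gave 6 rises and 7 falls among 46 (median 0.06), and 4 falls without control library 1. The sialyltransferase St3gal6 fell from 63.1 ± 2.97 to 27.3 ± 2.46 CPM (log2 fold change −1.21, SE 0.08, edgeR adjusted p 4.81e-06), while St3gal5, which makes the ganglioside GM3, rose from 70.8 ± 7.42 to 137 ± 5.25 CPM (log2 fold change 0.96, SE 0.08, edgeR adjusted p 1.95e-05). St6galnac3 fell from 2.51 ± 1.02 to 0.470 ± 0.134 CPM (log2 −2.40), and the sulfotransferase Chst15 rose from 2.53 ± 0.421 to 4.89 ± 0.459 CPM (log2 0.95), both at low levels.

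Of 53 epithelial differentiation genes, namely keratins, S100 proteins, tetraspanins, claudins and related genes, 18 rose, or 34.0% against 5.03% of all genes, and 2 fell, with a median of 0.26, and 12 rose and 2 fell against a fold of 1.2. The tetraspanin Tspan1 was counted at 54.2, 43.1, 53.5 and 44.7 CPM in control libraries 1 to 4 and at 188, 159, 213, 205 and 181 CPM in libraries 1 to 5 labelled Etv5KO. It was higher in every library labelled Etv5KO than in any control (log2 fold change 1.95, SE 0.11, edgeR adjusted p 1.53e-06). S100a14, a calcium-binding protein of epithelia, was counted at 10.9, 15.2, 14.6 and 7.04 CPM in control libraries 1 to 4 and at 58.3, 49.6, 56.1, 52.6 and 60.9 CPM in libraries 1 to 5 labelled Etv5KO (log2 fold change 2.21, SE 0.19, edgeR adjusted p 2.41e-05). Again the groups did not overlap. Emp1, an epithelial membrane protein, was counted at 20.7, 29.9, 27.2 and 18.8 CPM in control libraries 1 to 4 and at 72.2, 157, 134, 52.5 and 77.0 CPM in libraries 1 to 5 labelled Etv5KO. All of its values in libraries labelled Etv5KO exceeded the controls, with a wide spread among them (log2 fold change 2.02, SE 0.31, edgeR adjusted p 0.00148). Lgals3, which encodes a galectin, rose from 61.8 ± 5.23 to 124 ± 14.8 CPM (log2 fold change 1.00, SE 0.10, edgeR adjusted p 6.81e-05). The tight junction gene Cldn18 rose from 1240.0 ± 73.4 to 1675 ± 55.6 CPM (log2 0.43). Krt23 fell from 145 ± 23.4 to 62.6 ± 7.504 CPM (log2 fold change −1.21, SE 0.12, edgeR adjusted p 6.59e-05), as did Cldn8, from 3.42 ± 1.34 to 1.27 ± 0.345 CPM, named after its values were seen.

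Of 20 AT1 markers, 10 rose and 1 fell, with a median of 0.42. Sec14l3, a lipid-binding protein, was counted at 475, 376, 446 and 390.4 CPM in control libraries 1 to 4 and at 733, 902, 961, 771 and 748 CPM in libraries 1 to 5 labelled Etv5KO. No control reached the lowest library labelled Etv5KO (log2 fold change 0.96, SE 0.11, edgeR adjusted p 2.05e-04). Clic5, a chloride intracellular channel protein, rose from 140.0 ± 8.28 to 271 ± 33.6 CPM (log2 fold change 0.95, SE 0.09, edgeR adjusted p 6.81e-05), Emp2 rose from 661 ± 21.1 to 996 ± 39.2 CPM (log2 0.59) and the caveolin Cav2 rose from 66.2 ± 2.96 to 89.9 ± 5.96 CPM (log2 0.44). Aqp5, a water channel of AT1 cells named after its values were seen, was the member that fell (log2 −0.30, edgeR adjusted p 0.0254), with an adjusted p of up to 0.0993 without library 1, 4 or 5 labelled Etv5KO or control library 1, 3 or 4. The EpCAM gate by itself does not remove AT1 or airway epithelial cells. The tdTomato gate keeps only cells in which Cre acted on the reporter. How many AT1 or airway cells passed both gates was not measured. The AT1, airway secretory and ciliated sums given with the marker lists moved with this group, and their part in the result was not tested.

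Genes of actin, myosin and their regulators gave 14 rises and 5 falls among 84 (median 0.11), and 9 rises without control library 1 or 3. Mylk, myosin light chain kinase, fell from 257 ± 21.5 to 131 ± 8.29 CPM (log2 fold change −0.97, SE 0.07, edgeR adjusted p 1.54e-05). Pls1, an actin-bundling fimbrin of epithelial brush borders, rose from 25.9 ± 1.18 to 43.9 ± 0.766 CPM (log2 fold change 0.76, SE 0.06, edgeR adjusted p 1.56e-05). Myom2, a protein of the sarcomere M band in muscle, was counted at 3.04, 3.63, 2.42 and 3.16 CPM in control libraries 1 to 4 and at 11.5, 17.7, 18.9, 12.4 and 10.9 CPM in libraries 1 to 5 labelled Etv5KO (log2 fold change 2.23, SE 0.20, edgeR adjusted p 4.84e-05). The groups did not overlap. The formin Fmnl2 rose from 3.24 ± 1.24 to 12.4 ± 5.45 CPM (log2 1.95), and Ccdc88b, a microtubule-binding protein of the Hook-related family, rose from 1.81 ± 1.06 to 8.90 ± 2.23 CPM (log2 fold change 2.28, SE 0.33, edgeR adjusted p 0.00104).

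Of 58 regulators of Ras and Rap GTPases 6 rose and 4 fell (median 0.00), so 17.2% were called against 9.87% of all genes. Rapgef3 and Rapgef4 encode Epac proteins, exchange factors for Rap that cAMP activates. Rapgef4 rose from 0.920 ± 0.0959 to 4.45 ± 1.51 CPM (log2 fold change 2.28, SE 0.26, edgeR adjusted p 2.11e-04), and Rapgef3, named after its values were seen, rose from 16.4 ± 2.92 to 40.05 ± 11.02 CPM (log2 fold change 1.29, SE 0.19, edgeR adjusted p 0.00120). Rapgef5, an exchange factor of another class, fell from 175 ± 10.6 to 104 ± 6.95 CPM (log2 fold change −0.75, SE 0.07, edgeR adjusted p 4.84e-05). The small GTPase Rasl12 rose from 7.02 ± 2.65 to 27.2 ± 8.44 CPM (log2 1.97). The Ras association domain genes Rassf6 and Rassf9 had log2 fold changes of −0.97 and −1.42, both falls.

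Growth factor ligand genes rose in 6 and fell in 2 of 50 cases (median 0.12), and 3 rose without control library 3, while 4 fell without control library 2. Angpt2, a ligand of the endothelial receptor Tie2 (Tek), was counted at 2.47, 1.07, 1.45 and 1.66 CPM in control libraries 1 to 4 and at 12.7, 14.3, 12.4, 10.5 and 10.02 CPM in libraries 1 to 5 labelled Etv5KO. Each value in libraries labelled Etv5KO lay above each control (log2 fold change 2.86, SE 0.21, edgeR adjusted p 1.46e-05). Tgfb3, a TGF-beta isoform, rose from 54.1 ± 12.2 to 123 ± 21.8 CPM (log2 fold change 1.18, SE 0.16, edgeR adjusted p 8.65e-04), and the platelet-derived growth factor chain Pdgfb rose from 27.3 ± 6.13 to 54.8 ± 6.51 CPM (log2 fold change 1.01, SE 0.14, edgeR adjusted p 9.28e-04). Il34, a ligand of the CSF1 receptor of macrophages, was counted at 50.8, 47.9, 52.4 and 42.1 CPM in control libraries 1 to 4 and at 23.3, 18.5, 19.8, 22.9 and 21.5 CPM in libraries 1 to 5 labelled Etv5KO. It fell without overlap (log2 fold change −1.19, SE 0.09, edgeR adjusted p 1.54e-05). The sum of 16 endothelial markers overlapped between the groups, at 319 to 388 CPM in controls and 305 to 395 CPM in libraries labelled Etv5KO. Esam and Cdh5 made up 56.3% of it in controls and 48.2% in libraries labelled Etv5KO. Without both genes it was 128 to 184 CPM in controls and 142 to 222 CPM in libraries labelled Etv5KO. Of these 16 markers 1 rose and 1 fell, with a median of 0.25. The part of endothelial cells in the Angpt2 difference was not tested.

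Axon guidance genes and their relatives gave 4 rises and 6 falls among 54 (median −0.02), or 18.5% called against 9.87% of all genes. Nrn1, a membrane-anchored neuritin, was counted at 211, 102, 189 and 149 CPM in control libraries 1 to 4 and at 54.8, 27.8, 27.0, 43.5 and 26.9 CPM in libraries 1 to 5 labelled Etv5KO. It was lower in all libraries labelled Etv5KO (log2 fold change −2.18, SE 0.25, edgeR adjusted p 2.57e-04). Slit3, a secreted ligand of Robo receptors named after its values were seen, fell from 7.95 ± 2.97 to 1.79 ± 0.616 CPM (log2 −2.15). The Eph receptors Epha7 and Ephb6 also fell (log2 −0.91 and −0.87). Ntn4, a laminin-binding netrin, rose from 4.47 ± 0.573 to 11.2 ± 1.84 CPM (log2 fold change 1.33, SE 0.15, edgeR adjusted p 1.84e-04), and Sema6c, a transmembrane semaphorin outside the list, rose from 0.461 ± 0.104 to 3.12 ± 0.868 CPM (log2 fold change 2.76, SE 0.28, edgeR adjusted p 1.03e-04). Among receptors and ectoenzymes, Avpr1a, a vasopressin receptor, fell from 25.5 ± 9.96 to 5.82 ± 2.86 CPM (log2 fold change −2.15, SE 0.39, edgeR adjusted p 0.00467). The orphan receptor Gpr153 rose from 14.7 ± 3.56 to 56.0 ± 9.05 CPM (log2 fold change 1.93, SE 0.16, edgeR adjusted p 2.41e-05), and Il4ra, an alpha chain of interleukin receptors, rose from 68.5 ± 5.97 to 118 ± 12.5 CPM (log2 fold change 0.78, SE 0.09, edgeR adjusted p 2.29e-04). Entpd3, which splits extracellular nucleotides, rose from 6.79 ± 1.61 to 26.5 ± 2.52 CPM (log2 fold change 1.96, SE 0.15, edgeR adjusted p 1.54e-05). Dpep2, a membrane dipeptidase of the leukotriene pathway, was counted at 20.6, 19.9, 22.7 and 20.9 CPM in control libraries 1 to 4 and at 68.3, 72.5, 62.4, 71.2 and 69.2 CPM in libraries 1 to 5 labelled Etv5KO (log2 fold change 1.71, SE 0.07, edgeR adjusted p 2.73e-07).

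Lung epithelial transcription factors, a list that takes in the ETS family, gave 3 rises and 5 falls among 62 (median 0.08), 12.9% called against 9.87% of all genes, and 3 falls without library 5 labelled Etv5KO or without control library 1 or 4. Outside this list, Hes2, a basic helix-loop-helix repressor, was counted at 52.2, 15.1, 58.4 and 36.5 CPM in control libraries 1 to 4 and at 1.49, 0.455, 0.554, 0.756 and 0.732 CPM in libraries 1 to 5 labelled Etv5KO. It was under every control in all 5 libraries labelled Etv5KO (log2 fold change −5.71, SE 0.43, edgeR adjusted p 1.46e-05). Etv4, of the same PEA3 group as Etv5, was counted at 0.427, 0.725, 0.856 and 0.311 CPM in control libraries 1 to 4 and at 3.95, 4.14, 2.92, 3.53 and 5.4001 CPM in libraries 1 to 5 labelled Etv5KO. It was higher in all 5 libraries labelled Etv5KO, at a low level (log2 fold change 2.73, SE 0.28, edgeR adjusted p 1.19e-04). Elk3, an ETS factor of the ternary complex group, rose from 55.7 ± 5.26 to 102 ± 6.29 CPM (log2 fold change 0.87, SE 0.08, edgeR adjusted p 3.72e-05). Cebpa, a leucine zipper factor of alveolar maturation, fell from 763 ± 96.7 to 445 ± 90.2 CPM (log2 fold change −0.78, SE 0.15, edgeR adjusted p 0.00538). Sox4 fell from 86.6 ± 14.8 to 55.2 ± 3.90 CPM (log2 −0.65), and Id2, an inhibitor of basic helix-loop-helix factors, fell from 272 ± 31.6 to 180.2 ± 30.1 CPM (log2 −0.59). Jag1, a Notch ligand, rose from 74.8 ± 12.3 to 128 ± 25.7 CPM (log2 0.77). A list of 35 basic helix-loop-helix, Id and Notch effector genes gave 1 rise and 2 falls (median 0.06). The share called was 8.57%, close to the 9.87% of all genes.

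The aryl hydrocarbon receptor gene Ahr fell from 26.8 ± 2.59 to 18.2 ± 2.12 CPM (log2 −0.56), and its partner Arnt2 fell at a low level, from 2.77 ± 0.828 to 0.430 ± 0.336 CPM (log2 −2.65). Both were counted in the nuclear receptor list, although neither is a member of that receptor family. Of that list 4 of 34 fell and 1 rose, or 14.7% called against 9.87% of all genes, with 2 falls without control library 3. Cyclin D1 (Ccnd1), which carries growth signals into the cell cycle, was counted at 495, 495, 464 and 359 CPM in control libraries 1 to 4 and at 830.5, 1143, 1126, 993 and 982 CPM in libraries 1 to 5 labelled Etv5KO. It was higher in all 5 libraries labelled Etv5KO (log2 fold change 1.16, SE 0.12, edgeR adjusted p 1.34e-04). Bub1, a kinase of the mitotic checkpoint, fell from 31.5 ± 2.58 to 9.56 ± 3.09 CPM (log2 fold change −1.72, SE 0.20, edgeR adjusted p 2.50e-04). These were the 2 genes called among 48 cell cycle genes, or 4.17% against 9.87% of all genes. The median of the list was 0.58, and the summed level of the other members overlapped between the groups. Nupr1, a chromatin-associated stress protein, fell from 159.7 ± 39.9 to 33.6 ± 11.2 CPM (log2 fold change −2.25, SE 0.24, edgeR adjusted p 1.30e-04). Of 8 Bex and Tceal genes, small related proteins of the X chromosome, 4 fell and none rose (median −0.41). Bex2 was counted at 220.1, 133, 235 and 142 CPM in control libraries 1 to 4 and at 51.9, 27.1, 14.5, 34.3 and 21.6 CPM in libraries 1 to 5 labelled Etv5KO (log2 fold change −2.62, SE 0.32, edgeR adjusted p 3.27e-04), Bex1 fell from 10.1 ± 2.99 to 4.13 ± 0.412 CPM, Bex4 fell from 5.46 ± 1.18 to 2.41 ± 0.510 CPM and Tceal8 fell from 69.4 ± 7.20 to 46.2 ± 6.05 CPM. Bex1 and Bex2 are near copies of each other, and only uniquely aligned reads were counted, so the split between them is uncertain.

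Antioxidant and xenobiotic enzymes rose in 12 and fell in 6 of 74 cases (median 0.10), with 3 falls without control library 3. Cyp1b1, a cytochrome P450 of the aryl hydrocarbon response, was counted at 2.56, 2.26, 2.27 and 2.02 CPM in control libraries 1 to 4 and at 14.8, 19.1, 15.7, 15.2 and 13.3 CPM in libraries 1 to 5 labelled Etv5KO. The lowest library labelled Etv5KO lay above the highest control (log2 fold change 2.77, SE 0.14, edgeR adjusted p 6.49e-07). Gclc, the catalytic subunit of the enzyme that starts glutathione synthesis, rose from 808 ± 47.9 to 1376 ± 149.9 CPM (log2 fold change 0.77, SE 0.10, edgeR adjusted p 3.90e-04). Cyp2f2, a cytochrome P450 of club cells, was counted at 127, 71.3, 118 and 80.4 CPM in control libraries 1 to 4 and at 304, 321, 333, 290.3 and 320.2 CPM in libraries 1 to 5 labelled Etv5KO (log2 fold change 1.66, SE 0.16, edgeR adjusted p 6.37e-05). Its groups did not overlap either. Of 11 airway secretory markers tested, 4 rose (2 without control library 4) and none fell, with a median of 0.67. Of these 11, 8 had an unadjusted p under 0.05 in edgeR's test, against 3321 of all 14939 genes. The sum of the list moved with Cbr2 and Hp, as given with the marker lists. Scgb1a1, the defining secretoglobin of club cells, was at 353 ± 137 CPM in controls and 401 ± 120.0 CPM in libraries labelled Etv5KO (edgeR adjusted p 0.785), with overlapping groups. Of 8 ciliated cell markers tested 2 were called, both rises, and the median was 0.38. Tppp3 rose from 83.8 ± 5.72 to 134 ± 21.6 CPM (log2 0.67), and Dynlrb2, named after its values were seen, rose from 14.5 ± 2.06 to 23.0 ± 4.78 CPM (log2 0.66), with an adjusted p of up to 0.0690 without library 1, 3 or 4 labelled Etv5KO or control library 4. Foxj1, the defining transcription factor of ciliated cells, was at 2.44 ± 0.458 CPM in controls and 2.38 ± 0.295 CPM in libraries labelled Etv5KO (edgeR adjusted p 0.945). The part of airway cells in these differences was not tested. The carboxylesterase Ces1g rose at a low level, from 0.797 ± 0.245 to 3.26 ± 0.910 CPM (log2 1.998), and has near copies beside it in the genome, so its count is uncertain.

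Of 10 MHC class II pathway genes, which present peptides to CD4 T cells, 5 rose and none fell (median 0.40), and 1 rose against a fold of 1.2. H2-Ab1, the beta chain of I-A, was counted at 609, 592, 579.6 and 539.7 CPM in control libraries 1 to 4 and at 902, 724, 717, 901 and 885 CPM in libraries 1 to 5 labelled Etv5KO (log2 fold change 0.51, SE 0.09, edgeR adjusted p 0.00510). No control reached the lowest library labelled Etv5KO. H2-Aa (log2 0.46), the invariant chain Cd74 (log2 0.45) and H2-DMb2 (log2 1.10) rose as well. H2-Eb1, named after its values were seen, rose (log2 0.35, edgeR adjusted p 0.0221) with an adjusted p of up to 0.0620 on leaving out library 1, 4 or 5 labelled Etv5KO or control library 1, 3 or 4. The leukocyte marker sums given beside Ncf1 overlapped between the groups, and their part in this result was not tested.

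Genes of regulated secretion and vesicle traffic rose in 8 and fell in 6 of 67 cases (median 0.08). Unc13d, which primes vesicles for release, rose from 78.6 ± 8.57 to 129 ± 9.77 CPM (log2 fold change 0.71, SE 0.09, edgeR adjusted p 3.21e-04). Anxa11, an annexin, rose from 56.6 ± 2.60 to 84.1 ± 5.02 CPM (log2 fold change 0.57, SE 0.06, edgeR adjusted p 2.21e-04), the recycling endosome adaptor Rab11fip1 rose from 132 ± 9.65 to 182 ± 8.66 CPM (log2 0.46), and the SNARE protein Stx6 rose from 68.0 ± 4.25 to 88.8 ± 3.31 CPM (log2 0.38).

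Basic machinery held few of the genes called. Among all 14939 genes tested, 3321 had an unadjusted p under 0.05 in edgeR's test. EdgeR called none of 78 ribosomal protein genes, 4 had an unadjusted p under 0.05, DESeq2 called 0 and limma-voom 0. The median log2 fold change of these 78 genes was −0.20, against −0.01 for all genes. EdgeR called none of 45 proteasome subunit genes (median 0.01), where 3 had an unadjusted p under 0.05, DESeq2 called 0 and limma-voom 0. It called none of 19 circadian clock genes (median 0.12), where 5 had an unadjusted p under 0.05. DESeq2 called 1 of them and limma-voom 1, and 2 rose without control library 2. Of 96 oxidative phosphorylation genes 1 fell, Cox4i2, an isoform of a cytochrome c oxidase subunit named after its values were seen (log2 −0.81), and that call was lost on leaving out library 3 or 4 labelled Etv5KO or control library 1, 2 or 3 (adjusted p up to 0.111).

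**Figure D3:**
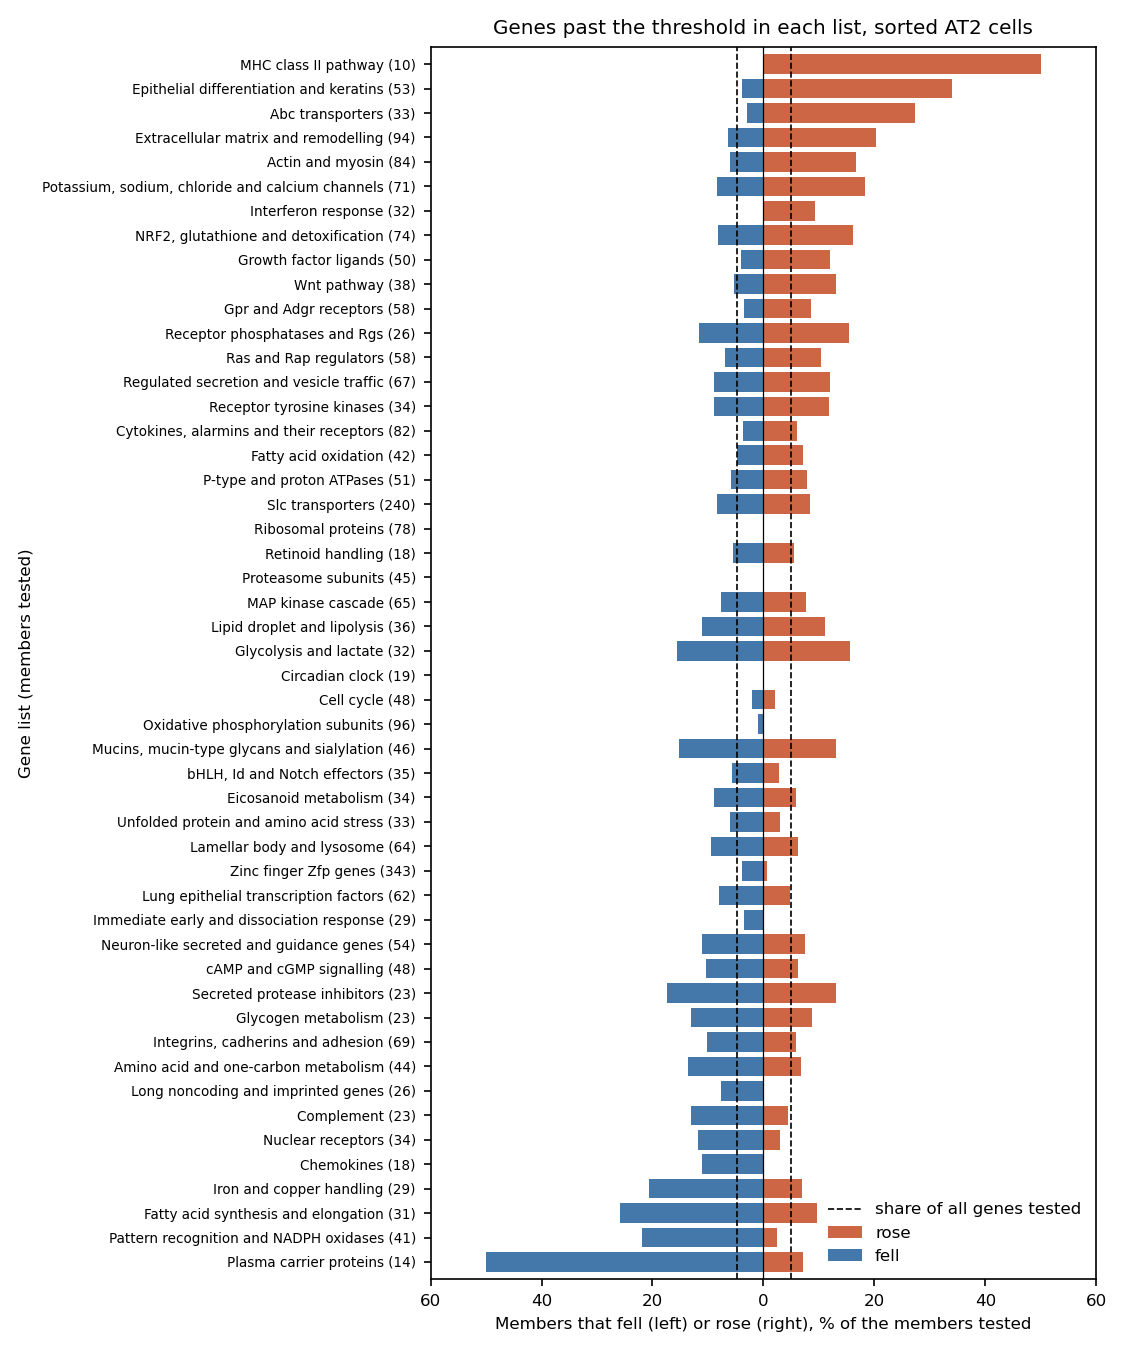
Percent of the tested members of each gene list that fell (left) or rose (right) in AT2 cells (x axis), with the shares of all genes tested, 4.84% and 5.03%, as dashed lines and the number of members tested in parentheses. Plasma carriers, pattern recognition, epithelial differentiation and MHC class II lists lie beyond the background in 1 direction, and ribosomal and proteasome genes have no calls.

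Smaller changes within the lists depended on the test. Of the 161 genes named here that were called, 139 also passed against a fold of 1.2. The 22 that did not were the rises of Phyh, Pgm1, Gys1, Alcam, Cldn18, Cav2, H2-Ab1, H2-Aa, Cd74, H2-Eb1, Stx6, Hp and Dynlrb2 and the falls of Aqp5, Cxcl15, Ugp2, Id2, Map3k13, 2510009E07Rik, Nhlrc1, Acss2 and Cox4i2. Against that fold, 5 AT1 markers, 4 actin genes, 5 detoxification genes, 5 secretion genes and 3 growth factors rose. For solute carriers 9 rose and 11 fell. Falls numbered 4 for fatty acid synthesis, 2 for iron and copper, 2 for lipid droplet genes, 2 for transcription factors, 3 for mucins and glycans, 1 for channels and 1 for glycogen. DESeq2 gave 10 channel falls, 13 secretion rises, 7 airway secretory rises and 4 complement rises. With library size as the only scaling, falls numbered 3 for iron and copper and 3 for actin genes, and the calls for Map3k13, 2510009E07Rik and Cox4i2 were lost.

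Genes beside Etv5 were examined because the alleles change that locus. Of the 20 nearest genes tested, 10 on each side, 3 rose and 2 fell, where 5.03% and 4.84% of all genes did so. On 1 side, Dgkg, a diacylglycerol kinase, is the tested gene next to Etv5, and 9230117E06Rik, an uncharacterised transcript, follows it. Dgkg was counted at 63.8, 37.96, 48.4 and 51.8 CPM in control libraries 1 to 4 and at 127, 129, 133, 141 and 103 CPM in libraries 1 to 5 labelled Etv5KO (log2 fold change 1.33, SE 0.14, edgeR adjusted p 1.19e-04). 9230117E06Rik was counted at 17.4, 12.8, 16.1 and 13.4 CPM in control libraries 1 to 4 and at 58.5, 35.2, 40.7, 48.5 and 39.1 CPM in libraries 1 to 5 labelled Etv5KO (log2 fold change 1.57, SE 0.15, edgeR adjusted p 7.94e-05). For both, each library labelled Etv5KO lay above each control. Both also rose in whole lung, Dgkg by log2 1.01 (edgeR adjusted p 0.00134) and 9230117E06Rik by 1.68 (edgeR adjusted p 3.68e-04). Tra2b, the tested gene next to Etv5 on the other side, did not pass the test (log2 −0.02, edgeR adjusted p 0.927). Liph, a phospholipase further out on that side, rose from 61.8 ± 7.39 to 104 ± 12.4 CPM (log2 fold change 0.76, SE 0.11, edgeR adjusted p 9.10e-04). Map3k13, a kinase, and 2510009E07Rik fell by smaller amounts (log2 −0.45 and −0.27). The call for Map3k13 was lost without library 4 labelled Etv5KO or control library 2 (adjusted p up to 0.0574), and that for 2510009E07Rik on leaving out any of 7 of the 9 libraries. Whether the counting used strand is not given in the sources used here, so reads of overlapping genes on opposite strands cannot be told apart.

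**Figure D4:**
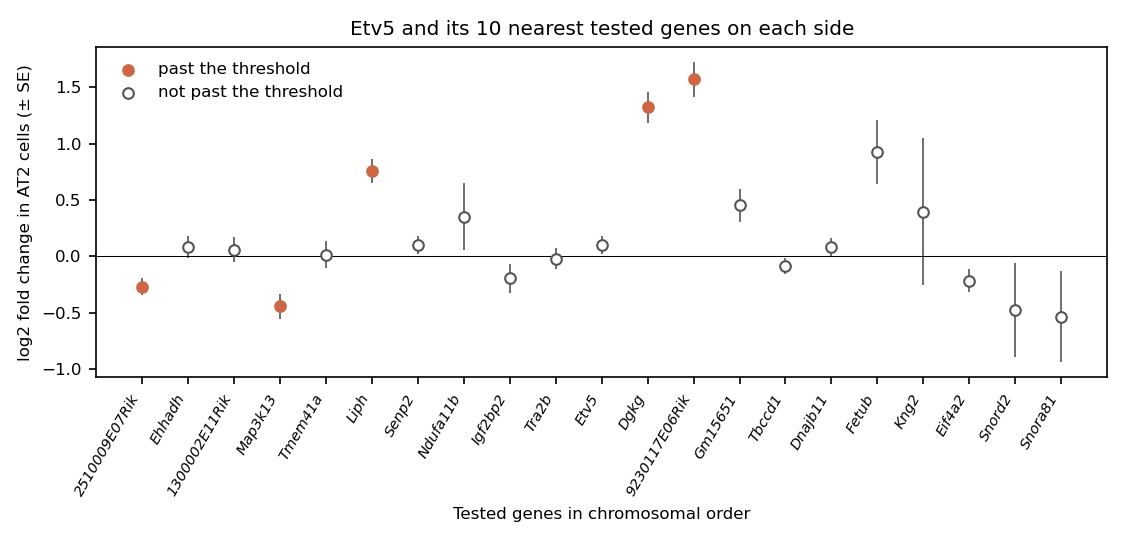
Log2 fold change in AT2 cells with its SE (y axis) of Etv5 and the 10 tested genes on each side, in chromosomal order (x axis), with filled points for genes called. Dgkg and 9230117E06Rik, on the same side of Etv5, are the highest points, and Etv5 itself lies near 0.

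Whole lung held the same contrast in 5 libraries per genotype and gave 71 calls among 17098 genes (0.415%). Of these, 65 were also called in AT2 cells, in the same direction, or 91.5% of the lung calls and 4.41% of the AT2 calls. Of the genes that rose in AT2 cells and were tested in lung, 588 of 724 had a positive lung fold change, and their median was 0.57 in AT2 cells and 0.15 in lung. Of those that fell, 601 of 698 had a negative lung fold change, with medians of −0.65 and −0.14. The share with matching signs among all 14550 genes tested in both is not given here, so these counts have no background beside them. Because the labels tie no library to a mouse, a mouse may have given a library to each tissue. The lung values are therefore not an independent check of the AT2 values. The difference between the AT2 and lung effects was tested over all 19 libraries and passed for 282 of 17698 genes (1.59%), of which 276 were called in AT2 cells.

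Several of the strongest AT2 differences had a much smaller lung value. Whole lung holds other cell types beside AT2 cells. Sftpc took 0.81% to 1.18% of the counts in lung libraries and 4.98% to 7.71% in AT2 libraries. Lung levels of the genes below are not given here. The part of other cell types in their lung values was not tested. For Adamts1 the lung log2 fold change was −0.30 and the AT2 minus lung difference −4.10 (edgeR adjusted p 3.57e-07). For Trf these values were −0.26 and −3.47 (5.76e-10), for Rbp4 −0.09 and −4.04 (2.38e-08), and for Tgfbi 0.00 and −2.92 (1.04e-07). Among the rises, Angpt2 had a lung value of −0.03 and a difference of 2.88 (1.28e-05), Cyp1b1 0.05 and 2.71 (1.02e-06), and Cacna1h 0.56 and 3.89 (6.21e-06). Other genes had lung values close to those in AT2 cells. Acoxl was at −2.62 in lung and −2.65 in AT2 cells, Bex2 at −2.71 and −2.62, Nrn1 at −2.50 and −2.18, Gjb1 at −2.15 and −2.19, and Slc15a1 at 1.68 and 1.76. All 5 were called in both. The AT2 minus lung difference of these 5 genes did not pass the test, with adjusted p from 0.891 to 0.995, which does not show that the effects are equal. Hes2 fell by 4.57 on the log2 scale in lung (edgeR adjusted p 2.68e-04).

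**Figure D5:**
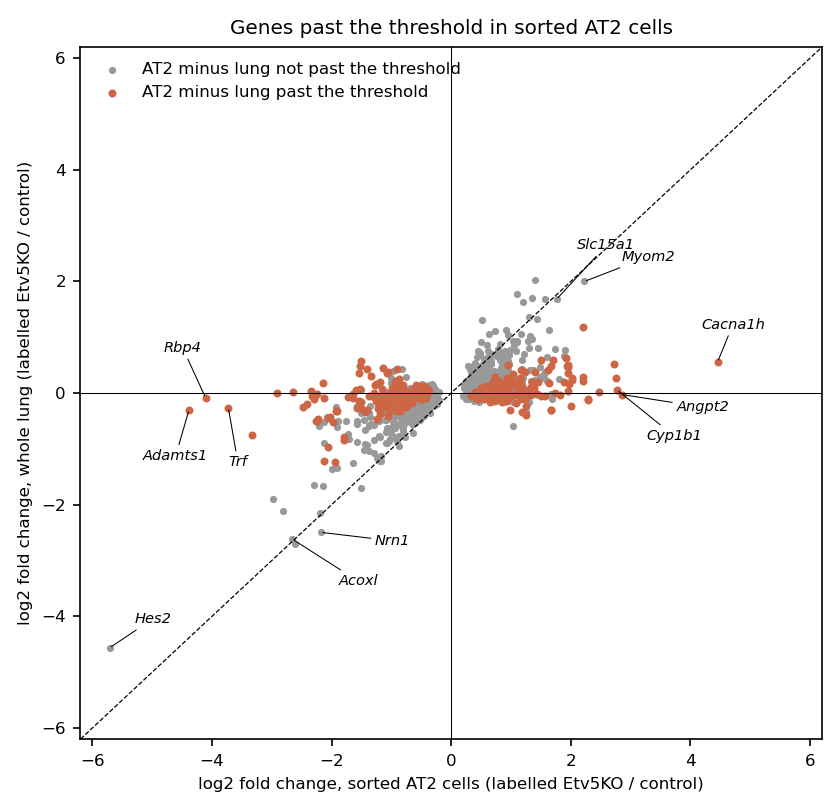
Log2 fold change of Etv5KO over control in whole lung (y axis) against that in AT2 cells (x axis) for genes called in AT2 cells, with genes whose AT2 minus lung difference passed the test in a separate colour. Most named genes of that colour, such as Adamts1, Trf and Angpt2, lie near 0 on the lung axis, while Acoxl, Nrn1, Myom2 and Slc15a1 lie near the diagonal, where both effects are equal.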

How the data were processed

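RNA was sequenced as polyadenylated RNA from 9 libraries of sorted AT2 cells (4 control, 5 labelled Etv5KO), with 10 lung libraries set beside them. Per the file headers, a deposited count gives the uniquely aligned reads of a gene model. The deposited RPKM column, which the authors divided by a size factor per sample, served here solely to recover those factors. Per the submitters' processing notes, GSNAP and build mm9 were used; the counting tool, annotation and strand setting were not given in the sources used here. Of 36528 IDs, 31049 were named from a RefSeq table of GRCm38.p6 and 77 from GENCODE, which gave names, gene order and promoter windows only.

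Counts were tested with edgeR 4.0.16 in R 4.3.3: filterByExpr (minimum count 10, minimum total 15), TMM scaling, two-sided quasi-likelihood F test, Benjamini-Hochberg adjustment, threshold 0.05. AT2 and lung were fitted apart, and the AT2 minus lung difference in a fit of 19 libraries. The SE is the absolute log2 fold change divided by the square root of F, and values after ± are SDs over 4 controls or 5 libraries labelled Etv5KO. Alternatives were DESeq2 1.42.0, limma-voom (limma 3.58.1), other scalings, no filter, a fold threshold of 1.2 and leaving out each library. The code was tested on simulated data.

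Genes were named by rule: Etv5; the 25 largest rises and falls among genes called with a mean of at least 5 CPM and no overlap; the 10 largest changes in CPM each way; the 8 largest each way at lower levels; up to 4 members called with the smallest p of each of 64 lists (11 of cell markers); and the 8 largest AT2 minus lung differences each way. The 8 each way at lower levels were also limited to genes without overlap. The text names those it has room for, and says where others were named after their values were seen. A few genes are not reported here. The members and lists were chosen with earlier results of these data known.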

Additional observations from a re-analysis of the deposited data

Results flagged for a closer look

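The 168 genes examined in both groups gave 336 gene and group pairs. In 18 of these pairs, 1 library lay apart from the rest of its group by Dixon's test. Chance gives about 1 in 20 such pairs, so the total of 18 among 336 is close to what chance gives. In control library 2 this held for Ncf1 (14.6 CPM, the lowest), Sftpa1 (22443 CPM, the lowest), Gdpd2 (18.3 CPM, the highest), Atp13a4 (23.5 CPM, the highest), Avpr1a (10.6 CPM, the lowest), Map3k13 (39.96 CPM, the highest), Smoc2 (17.9 CPM, the lowest) and Cbr2 (3032 CPM, the lowest). In library 3 labelled Etv5KO this held for Ncf1 (106 CPM, the highest), Tgfbi (6.69 CPM, the lowest) and Entpd3 (22.2 CPM, the lowest). In library 2 labelled Etv5KO this held for Clic5 (329 CPM, the highest), Ccdc88b (12.8 CPM, the highest) and Cd14 (13.5 CPM, the lowest). In control library 4 this held for Abcd3 (640.0 CPM, the lowest) and Slc7a7 (5.74 CPM, the lowest). In library 5 labelled Etv5KO this held for Noxa1 (3.75 CPM, the highest). In library 1 labelled Etv5KO this held for Atp6v1g3 (1.55 CPM, the highest). Control library 2, which also stood apart on principal component 2, held 8 of the 18.

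The AT2 minus lung difference passed for 282 of 17698 genes (1.59%), by edgeR's test of the interaction over 19 libraries with an adjusted p under 0.05. Of the genes named in the report, 78 passed. Some genes were named for this difference and many for a large AT2 change, so 78 cannot be read as a share of genes in general. Values are AT2 minus lung on the log2 scale. For 34 of the 78 genes the AT2 effect was more negative. They were −4.10 for Adamts1, −4.04 for Rbp4, −3.47 for Trf, −2.92 for Tgfbi, −2.68 for Arnt2, −2.59 for Gdpd2 and −2.35 for Fbp1. Next came differences of −2.34 for Slit3, −2.29 for Ppp1r3c, −2.22 for St6galnac3, −2.09 for Arg1, −1.85 for Cfi, −1.77 for Nupr1 and −1.77 for Atp13a4. Then followed −1.60 for Acacb, −1.46 for C5ar2, −1.44 for G0s2, −1.42 for Serpinf1, −1.13 for Rassf9, −1.10 for Arg2 and −1.10 for Pecr. Further values were −0.98 for St3gal6, −0.97 for Hdc, −0.96 for Mylk, −0.92 for Elovl1, −0.82 for Apoe, −0.82 for Il34 and −0.72 for Acot7. Smaller ones were −0.69 for Ephb6, −0.67 for Lbp, −0.66 for Got1, −0.65 for Itga9, −0.61 for Clu and −0.36 for Ugp2.

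For 44 of the 78 genes the AT2 effect was more positive. They were 3.89 for Cacna1h, 2.88 for Angpt2, 2.71 for Cyp1b1, 2.47 for Sema6c, 2.44 for Atp2b2, 2.40 for Ccdc88b and 2.39 for Rapgef4. Next came differences of 2.20 for Ces1g, 2.20 for Etv4, 1.98 for Ncf1, 1.95 for Cyp2f2, 1.91 for Fmnl2, 1.80 for Rasl12 and 1.79 for Emp1. Then followed 1.64 for Ltbp2, 1.59 for Entpd3, 1.48 for Ano1, 1.45 for Gpr153, 1.44 for Tspan1, 1.34 for Ntn4 and 1.28 for Ndnf. Further values were 1.23 for Rapgef3, 1.11 for Dpep2, 1.04 for Agpat4, 1.04 for Pdgfb, 1.02 for Chst15, 1.01 for S100a14 and 1.01 for Col16a1. Smaller ones were 0.93 for Slc7a7, 0.91 for Cybrd1, 0.90 for Elk3, 0.87 for Clic5, 0.85 for Lgals3, 0.82 for Il4ra and 0.81 for Sec14l3. Below these stood 0.74 for Ccnd1, 0.65 for Atp2a3, 0.64 for Abca7, 0.51 for Pls1, 0.47 for Unc13d, 0.46 for Slc44a2 and 0.46 for Anxa11. The last were 0.45 for St3gal5 and 0.45 for Emp2.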

How the results depend on the processing

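The number of genes called ranged from 1062 without control library 3 to 1587 without control library 2, of which 1268 were also called with all 9 libraries. The rises ranged from 539 to 824 and the falls from 523 to 763 when a library was left out. Tested against a fold of 1.2, 624 genes were called, 307 higher and 317 lower, since that test asks for a larger change. DESeq2 called 1860, limma-voom 1461, the fit over 19 libraries 1793, the authors' size factors 1444, library size alone 1376 and no filter 1409. The AT2 minus lung difference passed for 282 genes, for 467 with DESeq2 (the cause was not tested), and for 198 to 319 when a library was left out. Of the genes named, Scgb1a1 and Foxj1, which did not pass the test, changed sign. For Scgb1a1 the log2 fold change was −0.0146 without control library 2 (adjusted p 0.983) and up to 0.37 without control library 3. For Foxj1 it was −0.032 with all libraries, −0.142 without control library 2 to 0.068 without control library 3, and 0.038 with library size scaling. Its sign was also positive without library 1 labelled Etv5KO (0.029) or control library 1 (0.017). Calls lost on leaving out a library are given beside Hp, Aqp5, Dynlrb2, Nhlrc1, H2-Eb1, Cox4i2, Map3k13 and 2510009E07Rik. No paired analysis was possible because the replicate numbers follow accession order and pair nothing. Genes at a few CPM rest on few counts, and their fold changes depend on the prior count of the fit.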
